A study of Danio rerio with 6 samples.

Results

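The genes described here are the 7 arginase, ornithine and polyamine enzymes arg1, arg2, oat, odc1, sms, aldh9a1a.1 and aldh9a1b, out of 31388 genes counted in zebrafish larvae. They were chosen by name for their place in the pathway, and all 7 were among the 26544 genes with enough counts to be tested. In the form used here, the names of 6 of them come from a table of the study that is ordered by the p-value of this same comparison, so those names are tied to the outcome and the count of differences among the 7 is no independent result. The exception is sms, which is named only in a table made on another mutant line.

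The series compares fdx1b mutants with their siblings at 5 dpf. fdx1b encodes a mitochondrial ferredoxin that passes electrons to steroid-making enzymes, and the mutant larvae are cortisol deficient. Each of the 3 mutant and 3 sibling samples was the total RNA of 20 whole larvae pooled at circadian time ZT 3, under control conditions and from fish of the AB strain. The mutants were recognised by their failure to adapt their pigment to a light background, and the labels do not give the genotypes among the siblings, which the study calls wild-type.

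Arginase splits arginine into urea and ornithine, and ornithine is a branch point. Ornithine decarboxylase takes it to putrescine, the start of the polyamines spermidine and spermine, whereas ornithine aminotransferase takes it to glutamate semialdehyde and on to proline or glutamate. Polyamines bind nucleic acids and are needed by growing cells, and antizymes hold ornithine decarboxylase down when polyamines are plentiful.

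The libraries held between 18247332 (sibling replicate 2) and 49908095 exonic counts, and Pearson's r of log2 counts between replicates was between 0.984 and 0.994. Sibling replicate 2 departed most from its group. Chi-square per degree of freedom, a measure of spread beyond counting error, was 35.9 and 34.7 for its pairs. The other pairs of replicates had 6.18 to 9.71. At 3 counts, taken as the smallest detectable number, the level is between 0.0598 and 0.165 CPM (counts scaled by library size to the usual common total), a limit that covers counting error only. The targeted gene was not analysed here and gives no check of the labels. Replicates are separate pools, nothing says that they come from separate crosses, and the p-values measure only the spread between these pools. In whole larvae, fewer cells of a type and less RNA per cell cannot be told apart. A gene was called changed where its adjusted p-value did not exceed 0.01 and its log2 fold change reached 0.25 in either direction.

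Of the 7 enzymes, oat was lower in fdx1b-/- larvae and was called by edgeR, and 0 were called higher, with 3 higher and 3 lower at an unadjusted p-value under 0.05. The same rule called 1.12% of all genes tested, and 0.497% as lower. The share of all genes at an unadjusted p-value under 0.05 was not taken, so such counts stand without one here and below. With 0.05 as the limit on the adjusted p-value and none on the fold change, arg1 and oat passed, 2 of 7 against 3.89% of all genes. arg1 missed that limit with the replicate numbers as a block (adjusted p-value 0.0842 by edgeR), at equal depth (0.0779) and in 5 of the 6 fits with a library left out, all but that without sibling replicate 2. The groups did not overlap for 6 of the 7 enzymes, with arg1, arg2 and oat below and odc1, aldh9a1a.1 and aldh9a1b above their siblings, whereas the groups did not overlap for 26.0% of all genes. Because 6 of the names were drawn from a list ordered by p-value, nothing is read from these shares. Values are given below first as CPM in each pool, then as the fold change fitted with the quasi-likelihood test of edgeR, with p-values adjusted over all 26544 genes.

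The arginases come first in the pathway. arg1 (ENSDARG00000057429), which in mammals is the cytosolic enzyme of the liver urea cycle, was measured at 4.45, 3.69 and 4.26 CPM in the siblings and at 2.86, 3.17 and 2.31 CPM in fdx1b-/- larvae. Every mutant pool was below every sibling pool, and the means were 4.13 ± 0.391 and 2.78 ± 0.436 CPM (SD, n = 3). The log2 fold change was -0.59 (SE 0.14, 95% interval -0.91 to -0.27), with an adjusted p-value of 0.0466 by edgeR, short of the threshold. These values rest on few reads, from 67 to 223 counts per library.

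arg2 (ENSDARG00000039269), the mitochondrial arginase of mammals, had 116, 97.0 and 97.9 CPM in the siblings and 81.3, 80.2 and 90.7 CPM in fdx1b-/- larvae. The groups again did not overlap, and sibling replicate 1 stood above the other siblings. The means were 104 ± 10.5 and 84.1 ± 5.79 CPM (SD, n = 3), and the fitted log2 fold change was -0.30 (SE 0.08, 95% interval -0.47 to -0.14), with an adjusted p-value of 0.0515 by edgeR. The Wald test of DESeq2 gave arg2 an adjusted p-value of 0.00734 and called it. None of the other settings among the 15 alternatives called arg2. Its adjusted p-value by edgeR reached 0.252 without mutant replicate 2.

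oat (ENSDARG00000078425), ornithine aminotransferase, had 30.6, 29.4 and 27.8 CPM in the siblings and 20.9, 19.0 and 20.4 CPM in fdx1b-/- larvae. The lowest sibling stood well above the highest mutant pool, and both groups were tight. oat fell from 29.3 ± 1.38 to 20.1 ± 0.978 CPM (SD, n = 3), to 0.687 of the sibling level, with a log2 fold change of -0.54 (SE 0.07, 95% interval -0.68 to -0.40) and an adjusted p-value of 0.00101 by edgeR. The call was lost without sibling replicate 1 (adjusted p-value 0.0135), mutant replicate 2 (0.0130) or mutant replicate 3 (0.0112) in edgeR, while the log2 fold change stayed between -0.58 and -0.49 under all 15 alternatives.

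odc1 (ENSDARG00000007377), ornithine decarboxylase, had 8.73, 8.99 and 7.31 CPM in the siblings and 10.7, 11.1 and 10.2 CPM in fdx1b-/- larvae. Here every mutant pool lay above every sibling pool, opposite to oat. The means were 8.34 ± 0.903 and 10.7 ± 0.463 CPM (SD, n = 3), and the log2 fold change of 0.36 (SE 0.10, 95% interval 0.15 to 0.58) had an adjusted p-value of 0.0610 by edgeR. It was called under none of the 15 alternatives, over which its adjusted p-value by edgeR or DESeq2 ran from 0.0290 to 0.232.

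sms (ENSDARG00000008155), spermine synthase, which makes spermine from spermidine, had 32.7, 33.1 and 37.0 CPM in the siblings and 34.1, 32.9 and 35.2 CPM in fdx1b-/- larvae. It was the only enzyme of the 7 whose groups overlapped. The means were 34.3 ± 2.4 and 34.1 ± 1.11 CPM (SD, n = 3), and the 95% interval of the log2 fold change of -0.01 ran from -0.15 to 0.13 (SE 0.06, adjusted p-value 0.946 by edgeR).

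The aldehyde dehydrogenases of the Aldh9a1 group oxidise the aldehyde made from putrescine to GABA and also act in carnitine synthesis, roles known from mammals. aldh9a1a.1 (ENSDARG00000069100) had 524, 480.2 and 579.5 CPM in the siblings and 639, 623 and 650.2 CPM in fdx1b-/- larvae. All mutant pools lay above all siblings, and the siblings spread more widely than the mutants. The means were 528 ± 49.8 and 638 ± 13.7 CPM (SD, n = 3), with a log2 fold change of 0.27 (SE 0.07, 95% interval 0.11 to 0.44) and an adjusted p-value of 0.0656 by edgeR. The Wald test of DESeq2 called it, with an adjusted p-value of 0.00345. No other setting among the 15 alternatives called aldh9a1a.1. Its adjusted p-value by edgeR reached 0.213 without mutant replicate 3.

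aldh9a1b (ENSDARG00000037061) had 13.3, 12.7 and 16 CPM in the siblings and 18.8, 18.5 and 17.0 CPM in fdx1b-/- larvae. The groups did not overlap, but sibling replicate 3 and mutant replicate 3 came close to each other. From means of 14.0 ± 1.78 and 18.1 ± 0.95 CPM (SD, n = 3), the log2 fold change was 0.36 (SE 0.09, 95% interval 0.16 to 0.56) with an adjusted p-value of 0.0540 by edgeR. Without sibling replicate 3 the adjusted p-value of edgeR was 0.00803, and the gene was called. That was the only call under the 15 alternatives, over which its adjusted p-value by edgeR or DESeq2 reached 0.206. In the RefSeq annotation of GRCz12tu, a later assembly than that of the counts, aldh9a1b overlaps an unnamed locus and zte38, which had only 0.445 ± 0.0565 CPM in the siblings and 0.373 ± 0.104 CPM in the mutants (SD, n = 3).

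**Figure D1:**
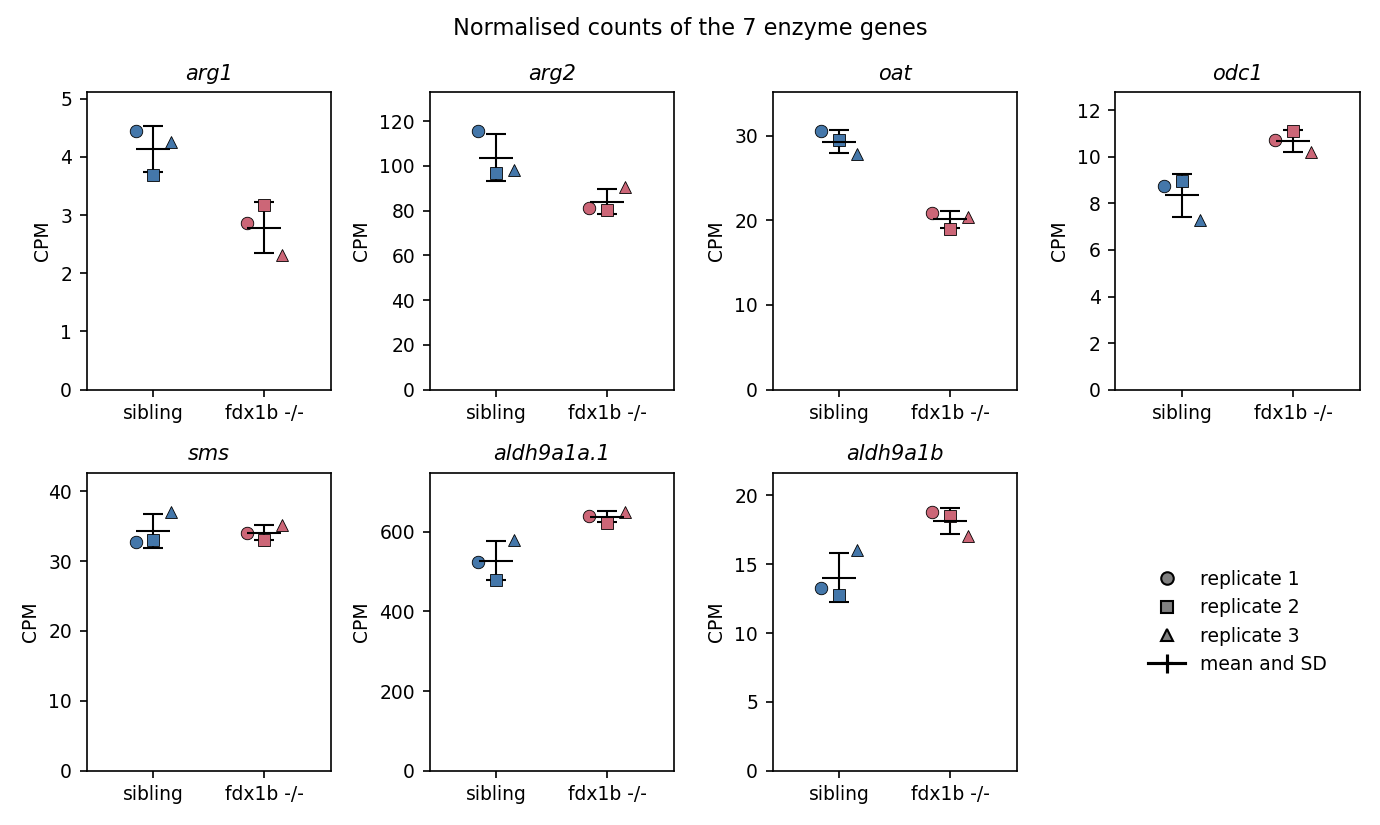
CPM (linear axes from 0) of the 7 enzyme genes in each pool, with siblings in blue and fdx1b-/- larvae in red, marker shape for the replicate number, and the mean and SD of 3 pools in black. The oat values of 19.0 to 20.9 CPM in mutants lie below the 27.8 to 30.6 CPM of siblings, while the sms values of the groups overlap.

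A further locus, ALDH9A1 (ENSDARG00000055331), carries the name of the group in the reference table without a paralog letter and was not among the 7. It was looked up after the values of the others had been seen. It had 8.03, 10.9 and 9.14 CPM in the siblings and 9.42, 6.75 and 8.64 CPM in fdx1b-/- larvae. Its groups overlapped, and its log2 fold change was -0.15 (SE 0.14, 95% interval -0.45 to 0.15, adjusted p-value 0.576 by edgeR). With a library left out, the log2 fold change of ALDH9A1 ran from -0.26 (without sibling replicate 1) to -0.05 (without sibling replicate 2) and -0.02 (without mutant replicate 2). A difference between ALDH9A1 and the loci aldh9a1a.1 and aldh9a1b was not tested.

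**Figure D2:**
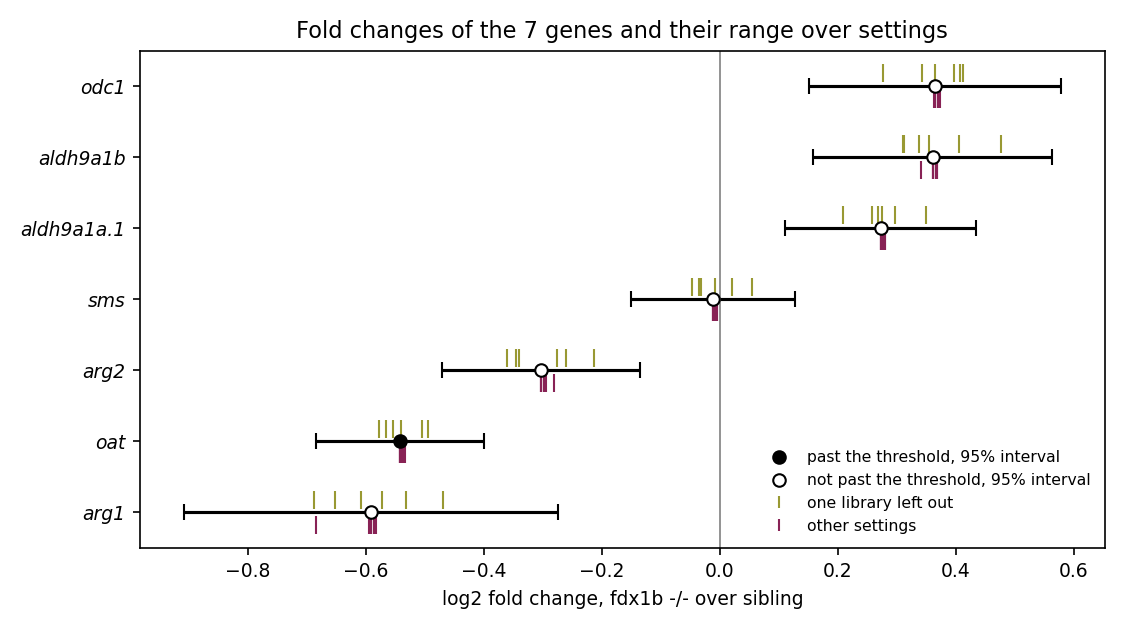
Fitted log2 fold change of fdx1b-/- larvae over siblings for each enzyme gene (circle, filled where called) with its 95% interval, and the values with a single library left out (upper ticks) or under the other settings (lower ticks). The oat estimate of -0.54 is filled, and sms at -0.01 is the one gene whose ticks lie on both sides of 0.

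Levels of different genes were compared only after division by exon length, as CPM per kilobase. In the siblings the order was aldh9a1a.1 (119 ± 11.3), arg2 (46.0 ± 4.67), sms (17.2 ± 1.21), oat (9.26 ± 0.438), aldh9a1b (6.04 ± 0.768), arg1 (4.0 ± 0.379) and odc1 (3.55 ± 0.385), all CPM per kilobase (SD, n = 3). The pools of arg1 and odc1 overlapped in the siblings, and those of every other neighbouring pair did not. In fdx1b-/- larvae the pairs at the lower end were in the other order. There aldh9a1b (7.81 ± 0.410 CPM per kilobase) lay above oat (6.36 ± 0.309), and odc1 (4.55 ± 0.197) above arg1 (2.69 ± 0.422), with no overlap between the pools of either pair. By mean CPM, aldh9a1a.1 ranked at the 99.4th percentile of the genes tested, arg2 at the 93.9th and arg1 at the 33.3rd.

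**Figure D3:**
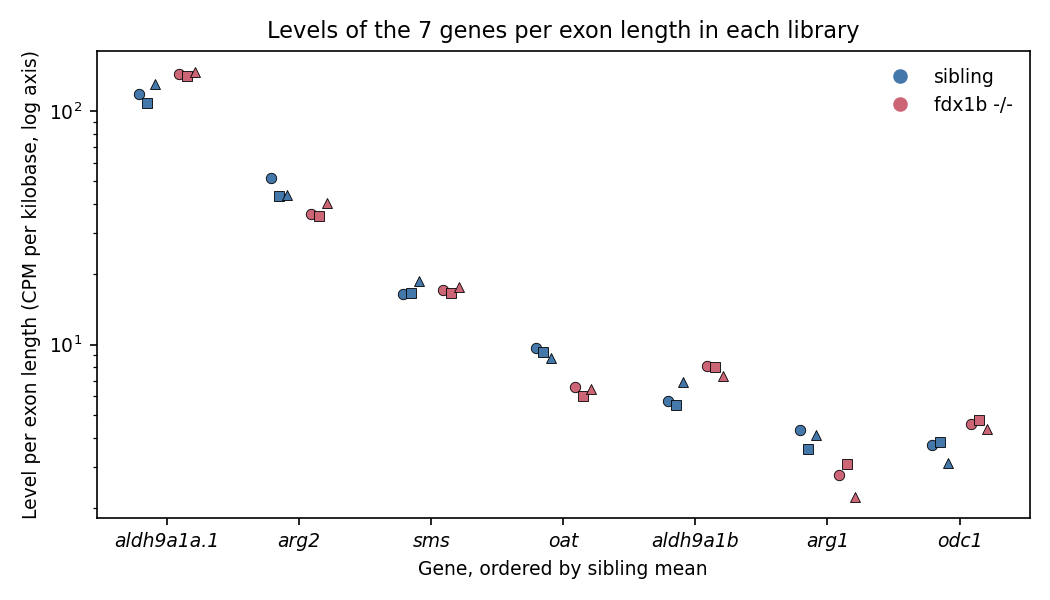
Level of each enzyme gene in each pool as CPM per kilobase of exon on a log axis, ordered by the sibling mean, with siblings in blue, fdx1b-/- larvae in red and marker shape for the replicate. The range from aldh9a1a.1 (119 in siblings) to odc1 (3.55) is wider than any difference between the groups.

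Ratios within a library do not depend on how the libraries are scaled. The ratio of oat to odc1 counts, the enzymes that draw ornithine in opposite directions, was 3.50, 3.27 and 3.80 in the siblings and 1.95, 1.71 and 2.00 in fdx1b-/- larvae. All mutant ratios lay below all sibling ratios. With oat lower and odc1 higher in every mutant pool, this separation was fixed in advance. The ratio and its p-value therefore restate the differences of these genes and are no further result. The mean log2 ratio was 1.81 ± 0.109 in the siblings and 0.91 ± 0.121 in the mutants (SD, n = 3), a difference of -0.90. An exact permutation test, two-sided, gave p = 0.1, which is the smallest value that 3 against 3 pools allow, and 0.2 after adjustment over 4 ratios.

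The ratio of sms to odc1 counts was 3.75, 3.67 and 5.06 in the siblings and 3.17, 2.96 and 3.45 in the mutants, again without overlap. Its log2 difference was -0.37 (exact permutation p = 0.1, adjusted 0.2), and -0.22 without sibling replicate 3. As the fitted log2 fold change of sms itself was -0.01, this ratio mostly restates the difference of odc1. The groups overlapped for both pairs of paralogs. The arg2 to arg1 ratio was 26.0, 26.1 and 23.0 in the siblings and 28.3, 25.2 and 39.1 in the mutants, with a log2 difference of 0.28 (exact permutation p = 0.3). That value rested largely on mutant replicate 3, without which it was 0.10. The log2 difference of aldh9a1b to aldh9a1a.1 was 0.10 (exact permutation p = 0.3) and ran from 0.07 to 0.16 with a library left out, so that neither pair of paralogs gave a difference in ratio beyond the spread of the pools.

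The other genes of polyamine metabolism were taken from a list of synthesis, regulatory, breakdown and polyamine-using proteins. Of the 30 tested, edgeR and DESeq2 each called 1 lower and 0 higher. Over all genes, edgeR called 0.497% lower and DESeq2 called 4.33% in either direction. The log2 fold changes were above 0 in 14 and below 0 in 16, and their median was -0.01, beside -0.003 over all genes. An unadjusted p-value under 0.05 was reached by 2 higher and 6 lower genes. The groups did not overlap for 1 higher and 6 lower genes, where they did not overlap for 26.0% of all genes. The called gene was oaz2b (ENSDARG00000059815), an antizyme, a family whose members bind ornithine decarboxylase and send it for degradation. The name oaz2b comes from the table ordered by the p-value of this comparison, as do slc3a2a, slc25a15b, aldh4a1, ckmt2b and slc6a8 below. These names are tied to the outcome, and their differences are no independent result. oaz2b had 8.53, 7.5 and 10.6 CPM in the siblings and 3.54, 3.76 and 5.08 CPM in fdx1b-/- larvae. The groups were clearly apart. oaz2b fell from 8.88 ± 1.59 to 4.12 ± 0.832 CPM (SD, n = 3), with a log2 fold change of -1.12 (SE 0.16, 95% interval -1.46 to -0.78, adjusted p-value 0.00265 by edgeR). The call was lost with 3 of the 6 libraries left out in turn (sibling replicate 1, mutant replicate 1 or mutant replicate 2), with log2 fold changes from -1.30 to -0.96 over the 15 alternatives. In the annotation of GRCz12tu oaz2b overlaps acana, a cartilage proteoglycan gene with 92.0 ± 9.42 CPM in siblings and 75.7 ± 7.14 CPM in mutants (SD, n = 3) and a fitted log2 fold change of -0.28, with an adjusted p-value of 0.0881 by edgeR. The use of strand in counting is not stated, so reads shared by oaz2b and acana cannot be told apart.

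The antizyme and antizyme inhibitor genes beside oaz2b, and the spermidine acetyltransferase loci that follow, were named after their values had been seen. OAZ1 (log2 fold change -0.11, adjusted p-value 0.289 by edgeR), oaz1b (-0.15, 0.149) and OAZ2 (-0.19, 0.127) all had fitted values below 0 and none was called. The pools of OAZ2 overlapped between groups, unlike those of the other antizymes. Antizyme inhibitors bind antizyme and so spare ornithine decarboxylase, and the AZIN1 loci had log2 fold changes of -0.03 and -0.07 (adjusted p-values 0.846 and 0.496 by edgeR). SAT1 (ENSDARG00000032272), a spermidine acetyltransferase that starts polyamine breakdown, had 5.18, 4.30 and 5.38 CPM in the siblings and 2.99, 4.10 and 3.86 CPM in fdx1b-/- larvae, and its fitted difference on the log2 scale was -0.46 (SE 0.14, adjusted p-value 0.0958 by edgeR). Its groups did not overlap, but the call was not made. The more abundant SAT1 loci overlapped between groups, ENSDARG00000035652 (51.9 ± 1.11 CPM in siblings, SD, n = 3) with a log2 fold change of -0.09 and ENSDARG00000095908 (31.7 ± 2.61 CPM) with 0.05. Their relatives SAT2, sat2a.2 and sat2b had -0.01, -0.22 and 0.15, and none of these was called. The pools of SAT2 and sat2a.2 overlapped. Those of sat2b were higher in all mutants, with 9.989 CPM in the lowest mutant pool and 9.988 in the highest sibling pool.

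**Figure D4:**
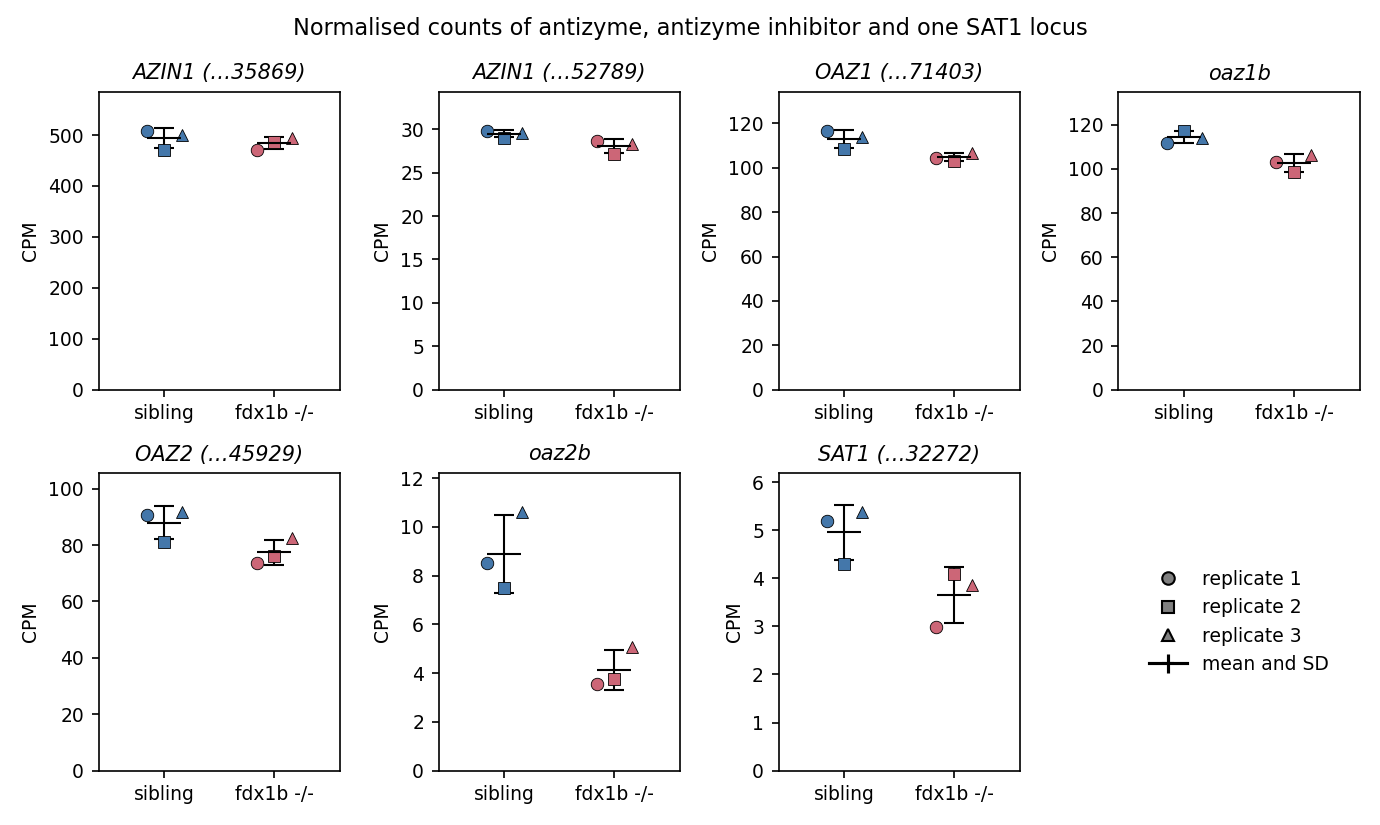
CPM (linear axes from 0) of antizymes, antizyme inhibitors and a spermidine acetyltransferase locus in each pool, drawn as for the enzymes, with the end of the Ensembl identifier where a name is shared or has no paralog letter. Only oaz2b, with 3.54 to 5.08 CPM in mutants against 7.5 to 10.6 in siblings, was called.

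The neighbouring steps of synthesis, breakdown and use held no called gene. SRM, spermidine synthase, gave a log2 fold change of 0.09 (adjusted p-value 0.475 by edgeR) and AMD1, which supplies the aminopropyl groups, -0.04 (0.80). Both were chosen after their values had been seen, as was SMOX, spermine oxidase, at -0.13 (0.239). PAOX, the oxidase of acetylated polyamines, had 0.16 (0.248). dhps and dohh, which convert spermidine into the hypusine residue of eIF5A, had 0.06 (0.667) and -0.01 (0.984), and the sign of dohh depended on the scaling. slc3a2a, the heavy chain of amino acid transporters, had 0.23 (0.135), with overlapping pools. The other heavy chain locus, SLC3A2 (ENSDARG00000037012), had -0.18 (0.111) with mutant pools all below the siblings, and was named after its values had been seen.

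In the lists around ornithine (urea cycle, proline, creatine and carnitine), edgeR called 0 genes, where it called 1.12% of all genes tested. In lists this short, 0 calls are near that share and do not show that the pathways were unchanged. Of 20 urea cycle, arginine transport and nitric oxide genes, 9 were fitted above 0 and 11 below, with a median of -0.02. Among them, 3 higher and 2 lower had an unadjusted p-value under 0.05. DESeq2 called 0 of them, against 4.33% of all genes. slc25a15b, a mitochondrial ornithine carrier, had 12.8, 11.6 and 13.4 CPM in the siblings and 9.85, 10.2 and 10.3 CPM in fdx1b-/- larvae, and its fitted difference on the log2 scale was -0.32 (SE 0.08, adjusted p-value 0.0529 by edgeR). Its groups did not overlap. In this list that held for 5 higher and 2 lower genes, and over all genes for 26.0%. The SLC25A15 locus ENSDARG00000063539, named after its values had been seen, had overlapping pools. Its log2 fold change was -0.15 (adjusted p-value 0.635 by edgeR). CPS1 and OTC, the mitochondrial enzymes of the mammalian urea cycle, named after their values had been seen, had 0.07 and 0.004 (adjusted p-values 0.722 and 0.992 by edgeR). slc7a2, a cationic amino acid carrier named in the same way, had 0.17 (0.0869).

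On the proline side of oat, the log2 fold changes of 5 of 12 genes were above 0 and those of 7 below, with a median of -0.01. An unadjusted p-value under 0.05 was reached by 2 higher and 2 lower genes. DESeq2 called 0, against 4.33% of all genes. aldh4a1, which oxidises glutamate semialdehyde to glutamate, had 94.0, 88.0 and 90.4 CPM in the siblings and 105, 111 and 105 CPM in fdx1b-/- larvae. Its pools did not overlap, which in this list held for 2 higher genes and 1 lower gene, and over all genes for 26.0%. The fitted direction was opposite to that of oat, whose product it uses. The log2 fold change of aldh4a1 was 0.24 (SE 0.05, adjusted p-value 0.0334 by edgeR), short of both parts of the threshold. With a library left out, its adjusted p-value stayed under 0.05 in only 2 of 6 edgeR fits and reached 0.175. It was 0.0833 with the replicate block in edgeR. ALDH18A1, which makes glutamate semialdehyde from glutamate and was named after its value had been seen, had 0.14 (0.144), and the collagen prolyl hydroxylase p4ha2 had 0.04 (0.820).

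Arginine also feeds creatine. Of 9 guanidino and creatine genes, 4 were fitted above 0 and 5 below, with a median of -0.06 and an unadjusted p-value under 0.05 for 1 higher and 2 lower genes. ckmt2b, a mitochondrial creatine kinase, had 141, 142 and 153 CPM in the siblings and 115, 114 and 124 CPM in the mutants, and slc6a8, the creatine transporter, had 41.6, 52.1 and 35.4 against 32.7, 28.4 and 31.8 CPM. Both were without overlap, as were 26.0% of all genes. Their log2 fold changes were -0.30 (SE 0.06, adjusted p-value 0.0254) and -0.46 (SE 0.11, 0.0482) by edgeR, which called neither. With a library left out, the adjusted p-value of each gene stayed under 0.05 in only 2 of 6 edgeR fits. That of ckmt2b reached 0.158. The Wald test of DESeq2 called both, 2 of 9, against 4.33% of all genes. With a library left out, slc6a8 ran from -0.58 (without sibling replicate 3) to -0.32 (without sibling replicate 2). Its adjusted p-value was 0.108 with the robust fit of edgeR. The CKMT2 locus ENSDARG00000069615, named after its values had been seen, had -0.06 (adjusted p-value 0.650 by edgeR) with overlapping pools.

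The Aldh9a1 enzymes share the carnitine pathway with bbox1, which makes carnitine, and with carnitine palmitoyltransferases, which use it. Of 14 such genes, the log2 fold change was above 0 in 9 and below 0 in 5, and the median was 0.06. Neither edgeR nor DESeq2 called any of them, where edgeR called 1.12% and DESeq2 4.33% of all genes. An unadjusted p-value under 0.05 was reached by 5 higher and 3 lower genes. cpt1ab had an adjusted p-value of 0.0413 by edgeR. With a library left out, cpt1ab stayed under 0.05 in only 1 of 6 edgeR fits, and its adjusted p-value reached 0.206. The fitted log2 fold change of bbox1 was -0.29 (SE 0.07, adjusted p-value 0.0524 by edgeR), against the positive values of aldh9a1a.1 and aldh9a1b. cpt1ab had 0.23 (SE 0.05) and its muscle-type relative cpt1b -0.25 (SE 0.06, adjusted p-value 0.0524). shmt2 had 0.23 (adjusted p-value 0.0769) and slc22a4 -0.55 (0.0775) by edgeR. In this list the pools did not overlap for 6 genes with mutants above siblings (cpt1ab, shmt2, CPT1A, CPT2, cratb and the CRAT locus ENSDARG00000040248) and for 3 with mutants below (bbox1, cpt1b and slc22a4), where 26.0% of all genes did not overlap. CPT1A, CPT2, cratb and CRAT were named after their values had been seen. The names bbox1, shmt2, cpt1ab and cpt1b come from the table ordered by p-value, so these are again tied to the outcome.

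**Figure D5:**
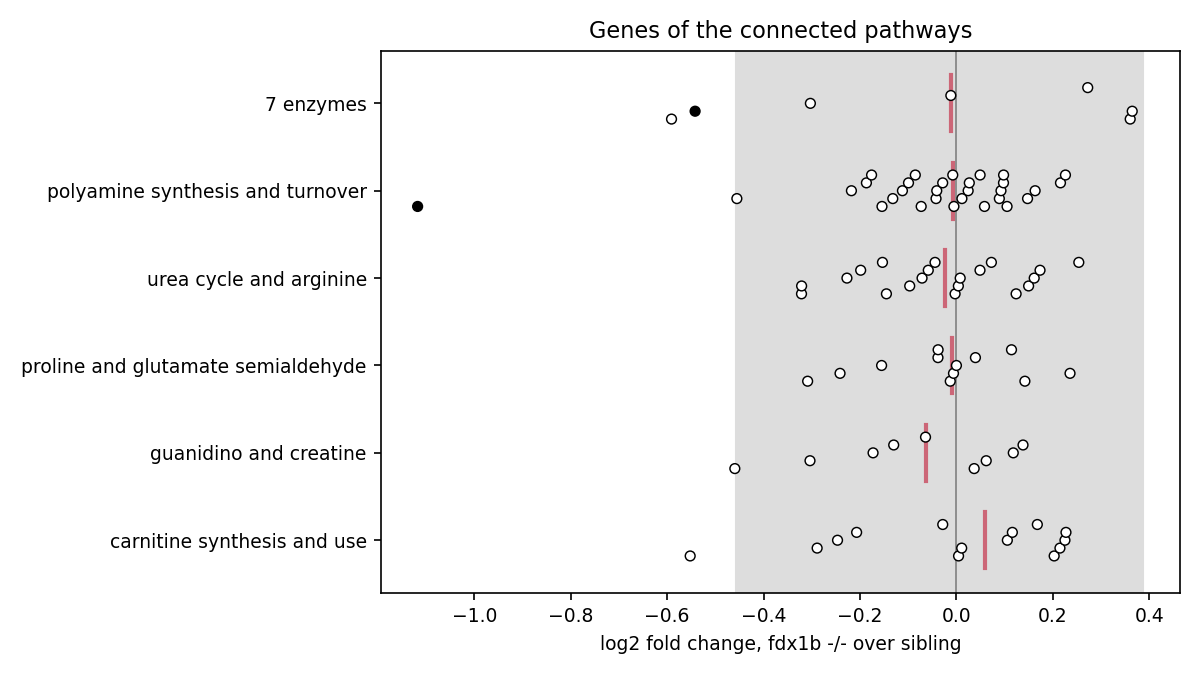
Log2 fold change of fdx1b-/- larvae over siblings for every tested gene of the 7 enzymes and of the connected lists, with called genes filled, the median of each list as a red bar and the 5th to 95th percentile of all genes tested (-0.46 to 0.39) in grey. The filled points are oat at -0.54 and oaz2b at -1.12, and the list medians lie between -0.06 and 0.06.

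For several tissues, the fitted log2 fold changes of marker genes leaned in a shared direction in these whole larvae. Few markers were called by edgeR, and the lists were not tested as sets. The summed level of 17 liver markers was 4292 to 5212 CPM in the siblings and 5823 to 5841 CPM in fdx1b-/- larvae, with 14 of 17 above 0 on the log2 fold change scale and 3 called higher by edgeR, where 1.12% of all genes were called. DESeq2 called 7 liver markers higher and 1 lower, against 4.33% of all genes. The 16 skeletal muscle markers summed to 33208 to 36982 CPM in siblings and 39478 to 41366 CPM in mutants, with 16 of 16 above 0, and edgeR called 1 higher and DESeq2 5. The 13 exocrine pancreas markers summed to 11073 to 12752 CPM in siblings and 9435 to 11019 CPM in mutants, with 13 of 13 below 0, 6 of them at an unadjusted p-value under 0.05, and 0 called by edgeR against 4 by DESeq2. Most liver and all muscle markers were thus above 0, and all pancreas and most neural markers below 0, while intestine and epidermis markers went both ways. The 13 intestine markers summed to 3704 to 4384 CPM in siblings and 3968 to 4224 CPM in mutants, with overlap. Of these, 5 were above 0 and 8 below. edgeR called 1 intestine marker higher and DESeq2 2, fabp1b.1 and lgals2b. The 10 neural markers summed to 1985 to 2066 CPM in siblings and 1811 to 1985 CPM in mutants, so that the groups barely touched, with 9 of 10 below 0, 4 of them at an unadjusted p-value under 0.05 and 0 called by edgeR or DESeq2. The 9 epidermis markers summed to 10759 to 11840 CPM in siblings and 10567 to 11439 CPM in mutants, with overlap, and 5 were above 0 and 4 below. Mutant pools were all below their siblings for 4 of them, where the groups did not overlap for 26.0% of all genes. edgeR called 1 epidermis marker lower and 0 higher, and DESeq2 called 2 lower, krt5 and krt17. The sums of the erythroid and leukocyte markers overlapped. Of 8 erythroid markers, 6 were above 0 and 2 below, with 0 called by edgeR and 1, hbbe2, called higher by DESeq2. Of 15 leukocyte markers tested, 9 were above 0 and 6 below, with 0 called by edgeR or DESeq2. No marker was at 0 in all libraries, and the part of tissue mixture in the enzyme values was not tested.

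For the enzymes with the highest and the lowest log2 fold change, the genes with the most similar pattern of log2 CPM over the 6 libraries are given as a description. They were THOC2 (Pearson's r 0.992), zgc:113209 (0.992) and il11ra (0.992) for odc1, and RBM28 (0.994), AATF (0.991) and znf1186 (0.988) for arg1. None of these was called, and their log2 fold changes (0.05, 0.17 and 0.22 for the genes like odc1, -0.09, -0.10 and -0.20 for those like arg1) were smaller than those of odc1 and arg1. The points share their libraries and their depth.

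With the Wald test of DESeq2, the study's own tool, oat, arg2 and aldh9a1a.1 were called, 3 of 7, where 4.33% of the 20422 genes with an adjusted p-value were. arg1, odc1, sms and aldh9a1b were called with neither tool on all 6 libraries.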

How the data were processed

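The values were read counts. Per the study's methods, the authors sequenced ribosome-depleted, stranded total RNA as single-end reads of 50 bases, mapped them onto GRCz10 with STAR (2.4.0i in the submitters' processing notes) and deposited raw counts per Ensembl gene, taken over exons from reads with a unique position, with exon lengths. Whether counting used strand is not stated.

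Counts were compared in edgeR 4.0.16 (R 4.3.3) by the quasi-likelihood F test with genotype alone, TMM scaling, filterByExpr and Benjamini-Hochberg adjustment over 26544 of 31388 genes. CPM used TMM-scaled library sizes, log2 CPM a prior count of 2 and ratios an offset of 0.5 counts. Alternatives were DESeq2 1.42.0, other scalings and filters, a robust fit, equal depth, a replicate block and each library left out. The edgeR fit with its main settings was tested on simulated counts, and the other methods were not.

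The enzymes, lists and tests were chosen with earlier results of these data known. The text names all 7 enzymes, the list genes with an identifier in the study's tables and the 3 genes most like odc1 and arg1 by Pearson's r. Other genes are said to be chosen after seeing their values. Symbols came from those tables and a reference table matching 25925 identifiers, and symbols in capitals carry no paralog letter. 2 wrongly listed symbols were left out.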

Additional observations from a re-analysis of the deposited data

How the results depend on the processing

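The number of genes called was 296, and oat was the 1 enzyme of 7 among them. DESeq2's Wald test called 885 genes (440 higher, 445 lower) and 3 enzymes. A limit of 0.05 on the adjusted p-value, with none on the fold change, passed 1032 genes and 2 enzymes. Leaving out a single library gave 109 (without sibling replicate 1) to 622 (without sibling replicate 3) genes, and 494 without sibling replicate 2, 110 without mutant replicate 1 or 3 and 120 without mutant replicate 2. It gave 0 to 2 enzymes: 0 without sibling replicate 1 or mutant replicates 2 or 3, and 2 without sibling replicate 3. The other scalings, filters, the robust fit and equal depth kept the enzyme count at 1.

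Among the enzymes and the list genes that were refitted under the alternatives, fitted log2 fold changes reversed only near 0. Not every gene named above was refitted. With a library left out, sms ran from -0.0471 to 0.0545 (positive without sibling replicate 3 or mutant replicate 2), dohh from -0.0781 to 0.0442 (positive without sibling replicates 2 or 3 or mutant replicate 2) and AMD1 from -0.0722 to 0.0103 (positive without mutant replicate 3). dohh was 0.001 with TMM without the 20 most abundant genes, 0.0026 with the upper quartile and 0.0016 without a filter, and p4ha2 was -0.0411 at equal depth. The within-library ratios kept their direction under the alternatives run, but arg2 to arg1 ran from 0.0982 to 0.4151 on the log2 scale, and sms to odc1 from -0.45 to -0.2186, with a library left out.

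Same-numbered pools deviated from their group means with correlations of -0.141, -0.140 and 0.0907, and differently numbered pools with -0.159 to 0.219. These values gave no sign that the numbers pair the samples, but with 3 pools per group they cannot show that the samples were unpaired. With the replicate block, 202 genes were called, 187 of them shared with the 296, and 1 enzyme, oat (log2 fold change -0.54, adjusted p-value 0.00466 by edgeR).

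Depth limits arg1 most, with 67 counts in the smallest library.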
